A study of Mus musculus with 8 samples.

Results

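The genes described here are 10 genes of the canonical WNT pathway in the uterus of the young mouse, read as 6 targets of β-catenin (*Lef1*, *Tcf7*, *Axin2*, *Sp5*, *Nkd1* and *Lgr5*) and 4 secreted WNT inhibitors (*Wif1*, *Dkk2*, *Dkk3* and *Sfrp4*). They were taken by symbol from the 27179 genes counted, and all 10 were among the 16658 genes that passed the filter on low counts and were tested. The genes were chosen with the difference between the genotypes already known, so their values are a description, and counts of members past a threshold are given without reading them as a test. RNA-seq of the whole uterus at postnatal day 10 (PD10) gave 1 library per mouse, from 4 controls and from 4 *Ezh2 Amhr2*-Cre cKO mice. Both genotypes carried the floxed *Ezh2* alleles on a C57BL/6/129SvEv background, and the cKO mice also carried Cre recombinase expressed from *Amhr2*, a gene of the uterine mesenchyme. EZH2 is, beside EZH1, a methyltransferase of polycomb repressive complex PRC2, which places a repressive mark on histone H3.

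In canonical WNT signaling, a WNT ligand binds a Frizzled receptor with an LRP co-receptor, β-catenin escapes degradation, enters the nucleus and activates genes together with the TCF and LEF factors. Several targets are themselves brakes or amplifiers of the pathway, and secreted inhibitors hold the signal back outside the cell, either by binding WNT proteins (WIF1 and the SFRP family) or by binding the LRP co-receptor (DKK2). In the mouse uterus the pathway is known for its part in the formation of endometrial glands, which bud from the luminal epithelium after birth.

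The promoters of the members are shown because TCF and LEF factors recognize a short DNA motif, and the genes with the largest differences can be compared with the rest. RefSeq start sites on GRCm38.p6 gave 11 windows of 250 bases before a start site for 7 of the 10 genes (the set of promoter sequences used here had no entry for *Lgr5*, *Dkk3* and *Sfrp4*). The motif was searched in 4 forms on both strands, as CTTTGAA with the variant form CTTTGAT and as CTTTGTA with the variant form CTTTGTT. The forms cannot overlap on the same strand, and matches are in capitals. Each sequence runs 5′ to 3′ on the plus strand, which is the strand of these 3 genes.
*Sp5*, chr2:70474673-70474922: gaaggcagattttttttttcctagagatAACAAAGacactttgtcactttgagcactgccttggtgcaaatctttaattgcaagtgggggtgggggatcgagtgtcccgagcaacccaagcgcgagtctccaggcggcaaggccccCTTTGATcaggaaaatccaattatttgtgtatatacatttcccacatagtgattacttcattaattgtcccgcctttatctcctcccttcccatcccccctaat
*Lef1*, chr3:131110047-131110296, before the first start site: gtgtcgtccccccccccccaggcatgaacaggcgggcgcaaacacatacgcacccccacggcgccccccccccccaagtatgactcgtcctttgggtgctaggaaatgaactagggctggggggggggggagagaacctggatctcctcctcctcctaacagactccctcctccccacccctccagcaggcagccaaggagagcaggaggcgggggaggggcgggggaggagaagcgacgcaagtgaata
*Lef1*, chr3:131156044-131156293, before a start site inside the gene: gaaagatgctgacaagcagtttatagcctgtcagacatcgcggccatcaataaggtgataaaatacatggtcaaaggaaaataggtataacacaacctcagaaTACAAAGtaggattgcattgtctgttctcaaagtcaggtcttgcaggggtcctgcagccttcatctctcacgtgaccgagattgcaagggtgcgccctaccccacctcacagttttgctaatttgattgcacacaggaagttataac
*Wif1*, chr10:121033754-121034003: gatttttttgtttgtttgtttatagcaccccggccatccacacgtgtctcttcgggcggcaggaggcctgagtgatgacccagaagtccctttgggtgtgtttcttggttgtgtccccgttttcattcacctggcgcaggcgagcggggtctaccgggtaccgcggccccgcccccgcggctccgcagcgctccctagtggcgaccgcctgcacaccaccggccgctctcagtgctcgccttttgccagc
The *Sp5* window held 2 matches, CTTTGTT on the reverse strand beginning 222 bases before the start site and CTTTGAT on the forward strand beginning 104 bases before it. Of 4 *Lef1* windows, the one shown inside the gene held 1, CTTTGTA on the reverse strand, and the other 3 held none. No match was found in the windows of *Wif1*, *Dkk2*, *Nkd1*, *Tcf7* or *Axin2*. The windows of *Nkd1*, *Tcf7* and *Axin2* lie inside the genes, so the bases before their first start sites were not searched. Of 11 windows, 2 (18.2%) held a match, beside 14.8% of all 32851 windows and 10.7% of the 15948 windows of genes tested. The *Lef1* windows from 131110047 and 131110073 share most of their bases, and so few windows allow no contrast with these shares. The *Wif1* window held 21 CpG dinucleotides and the *Sp5* window 6, beside a median of 14 over the windows of genes tested.

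Between 26234429 and 36685807 counts were obtained per control library and between 25287141 and 32658315 per cKO library, so that a gene with no counts is limited to 0.0818 to 0.119 CPM (counts scaled to library size) by counting error alone. *Ezh2* was detected at 35.4 to 54.7 CPM in controls and 30.4 to 40.7 CPM in cKO mice, with a log2 fold change of -0.29 ± 0.13 (standard error), and its groups overlapped (adjusted p = 0.247, edgeR's quasi-likelihood test). The total of a gene also counts reads outside the floxed exons and in cells without Cre, so it is a weak check of the labels. Smooth muscle markers summed to between 7172 and 9099 CPM over all 8 libraries. Stromal markers summed to 8569 to 11067 CPM in controls and to 12831, 12889, 12796 and 10115 CPM in cKO replicates 1 to 4. Summed fat markers were 2.09 to 4.10 CPM in controls and 86.7, 205.7, 92.6 and 4.24 CPM in cKO replicates 1 to 4, so 3 cKO libraries stood apart from the other 5. Of the stromal sum, *Col3a1* alone took 8368, 8606, 8574 and 6702 CPM in cKO replicates 1 to 4 and 5395 to 6783 CPM in controls, and *Col1a1* was likewise above every control in replicates 1 to 3 only, while *Vim*, *Pdgfra*, *Dcn* and *Lum* had overlapping groups and *Hoxa10* and *Hoxa11* were below every control in all 4 cKO libraries. The part of these markers in the values of the members was not tested. In whole uteri, fewer cells of a type and less RNA per cell cannot be told apart. Nothing in the labels states that mice came from separate litters, and the spread given here is that between these mice.

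Among the 6 targets, *Lef1*, *Tcf7*, *Axin2* and *Sp5* were lower in cKO uteri, and *Nkd1* and *Lgr5* had overlapping groups. Differences ran from 1.20-fold lower for *Tcf7* to 5.72-fold lower for *Sp5*, whose level was low in all mice. These 4 had an adjusted p under 0.05 and every cKO library below every control library, where 2.71% of all genes tested had such an adjusted p with a lower level in cKO and 2.62% with a higher one, and 6.43% had every cKO library below every control. Since the genes were chosen on this contrast, nothing is read from these shares. Leaving out 1 library ended the adjusted p under 0.05 in 6 of 8 fits for *Tcf7* and in 5 of 8 for *Axin2*, and in 0 of 8 for *Lef1* and *Sp5*. The median log2 fold change was -0.30 over the 6 targets and 0.00 over all genes tested.

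*Lef1* (Entrez gene 16842, chr3:131110297-131224357, GRCm38) encodes one of the factors that bind DNA with β-catenin. It was measured at 20.8, 23.9, 18.8 and 18.8 CPM in control replicates 1 to 4 and at 13.4, 15.4, 13.5 and 14.0 CPM in cKO replicates 1 to 4. The highest cKO library lay below the lowest control library. The means were 20.6 ± 2.40 and 14.1 ± 0.936 CPM (SD, n = 4), a log2 fold change of -0.54 ± 0.09 (standard error).

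*Tcf7* (Entrez gene 21414, chr11:52246527-52283383) encodes TCF1, a second factor of the same family. Control libraries had 62.0, 60.2, 68.1 and 66.5 CPM, and cKO libraries had 49.6, 53.6, 59.5 and 51.5 CPM. The groups came within 1 CPM of each other, at control replicate 2 and cKO replicate 3, without overlapping. The log2 fold change was -0.26 ± 0.07. *Tcf7* overlaps *Skp1* in the annotation and the strand setting of the counting is not given in the sources used here, so reads may be shared between them. Both *Lef1* and *Tcf7* are also expressed by lymphocytes. The 8 T cell markers summed to 4.06 to 9.71 CPM in controls and 3.99 to 5.55 CPM in cKO mice, with 0 of 6 tested past the threshold in edgeR, and the 8 NK cell markers summed to 7.63 to 13.2 CPM and 2.16 to 3.88 CPM, with 6 of 7 tested lower. Their part in the *Lef1* and *Tcf7* values was not tested.

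*Axin2* (Entrez gene 12006, chr11:108917828-108950783), a scaffold of the complex that destroys β-catenin and a widely used readout of the pathway, had 135.7, 132.3, 150.8 and 149.8 CPM in control libraries. In cKO libraries it had 105.3, 116.9, 126.5 and 101.5 CPM. All 4 cKO libraries were below all 4 controls, and the log2 fold change was -0.34 ± 0.08. *Sp5* (Entrez gene 64406, chr2:70474923-70477726), which encodes a zinc finger repressor induced by WNT signals, had 39, 28, 66 and 49 counts in control libraries and 10, 7, 6 and 7 in cKO libraries. On the CPM scale this was 1.23, 1.08, 2.35 and 1.35 in controls and 0.388, 0.234, 0.185 and 0.245 in cKO mice. Control replicate 3 was the highest library, and every cKO library was below every control. The log2 fold change of *Sp5* was -2.52 ± 0.34 over 182 control and 30 cKO counts.

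*Nkd1* (Entrez gene 93960, chr8:88521342-88594887), an intracellular brake that acts on Dishevelled, was second to *Dkk3* in mean level per kb of exons in controls. Its level was 195.0, 207.1, 195.6 and 195.0 CPM in controls and 200.3, 213.8, 249.2 and 187.5 CPM in cKO mice. The lowest cKO library was below all controls and the highest above all of them. The log2 fold change was 0.10 ± 0.08, and 0.01 to 0.16 when 1 library was left out. With the mean log2 CPM of the fat markers (the fat score) as a covariate this difference had the opposite sign, -0.05. *Lgr5* (Entrez gene 14160, chr10:115450314-115587780), a receptor for R-spondins and a marker of epithelial stem cells in the intestine, had 70.6, 88.7, 89.0 and 95.3 CPM in controls. In cKO mice it had 73.9, 71.0, 65.9 and 87.0 CPM, and the groups overlapped through control replicate 1, which lay below 3 of the cKO libraries. Its log2 fold change was -0.21 ± 0.10 in all 8 libraries and -0.01 with a fat score covariate, and it had the opposite sign (0.025) with cKO replicate 4 as the only cKO library. *Lgr5* overlaps A930009A15Rik, so that part of its reads may belong to that gene.

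**Figure D1:**
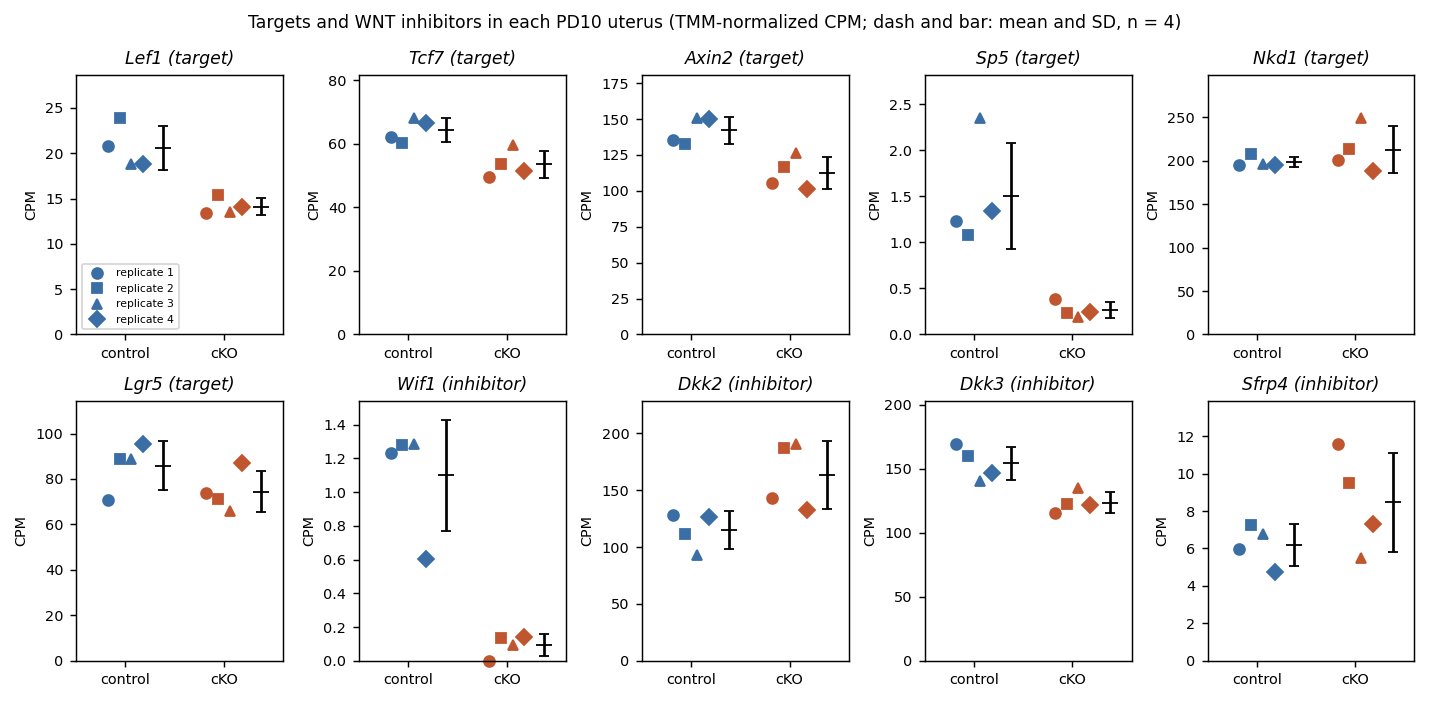
TMM-normalized CPM (vertical axes, from 0) of the 6 targets and 4 inhibitors in each control (blue) and cKO (orange) library, with a symbol per replicate number and the mean and SD of 4 libraries beside them. *Lef1*, *Tcf7*, *Axin2*, *Sp5*, *Wif1* and *Dkk3* have all cKO points below all control points, and *Dkk2* has all above.

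The 4 inhibitors did not share a direction. *Wif1* and *Dkk3* were lower in cKO uteri with no overlap of the groups, *Dkk2* was higher with no overlap (5.90% of all genes tested had every cKO library above every control), and *Sfrp4* overlapped. An adjusted p under 0.05 was reached by *Wif1* and *Dkk3*, and the median log2 fold change of the 4 genes was 0.07. Over both roles, 7 of 10 members were lower, 6 had an adjusted p under 0.05 (5.34% of all genes tested did, in either direction), 7 had groups that did not overlap (12.3% of all genes tested), and *Sp5* and *Wif1* were DE genes, which takes an adjusted p under 0.05 together with a change of more than 2-fold (1.30% of all genes tested).

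*Wif1* (Entrez gene 24117, chr10:121034004-121100642), a secreted protein that binds WNT ligands, had 39, 33, 36 and 22 counts in control libraries and 0, 4, 3 and 4 counts in cKO libraries. In CPM the controls had 1.23, 1.28, 1.28 and 0.604 and the cKO libraries 0, 0.134, 0.0924 and 0.140. Control replicate 4 was at about the middle between the other controls and 0, and 1 cKO library had no counts, which allows up to 0.119 CPM. The log2 fold change was -3.48 ± 0.48 over 130 and 11 counts, and its size depends on the prior count, being -2.84 with a prior count of 2. Its mean level per kb of exons was the lowest of the 10 genes in both genotypes.

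*Dkk3* (Entrez gene 50781, chr7:112116019-112159482), a divergent member of the DKK family, had 169.1, 159.8, 140.6 and 147.0 CPM in controls and 115.3, 122.3, 135.2 and 121.5 CPM in cKO mice. The highest cKO library, replicate 3, lay just under the lowest control, also replicate 3. The log2 fold change was -0.32 ± 0.07. *Dkk2* (Entrez gene 56811, chr3:132085266-132180304), which binds LRP co-receptors, went the other way. It had 128.6, 111.6, 92.9 and 126.9 CPM in controls and 143.0, 187.4, 190.6 and 132.6 CPM in cKO mice. All cKO libraries were above all controls, but replicates 1 and 4 only slightly, and the log2 fold change was 0.51 ± 0.14. *Sfrp4* (Entrez gene 20379, chr13:19623175-19632825), a secreted Frizzled-related protein, had 5.96, 7.27, 6.78 and 4.75 CPM in controls and 11.6, 9.47, 5.51 and 7.29 CPM in cKO mice. cKO replicates 1 and 2 were above every control, replicate 4 was just above the highest control (7.29 beside 7.27), and replicate 3 was below 3 controls. The log2 fold change was 0.45 ± 0.21, and 0.27 to 0.61 when 1 library was left out.

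The 3 cKO libraries rich in fat markers differ from replicate 4 in some members. The fat score was -1.34 to -0.96 in controls, 1.65, 2.52 and 1.55 in cKO replicates 1 to 3 and -1.11 in cKO replicate 4, so it is nearly confounded with genotype. A fit with this covariate therefore rests mostly on cKO replicate 4 and is no separate check from a fit with that library alone. With the fat score as a covariate, log2 fold changes were -0.60 for *Lef1*, -0.30 for *Tcf7*, -0.47 for *Axin2*, -2.65 for *Sp5*, -3.37 for *Wif1* and -0.33 for *Dkk3*, while that of *Dkk2* was 0.23 and that of *Sfrp4* 0.17. With cKO replicate 4 as the only cKO library, they were -0.54, -0.31, -0.48, -2.59, -2.91 and -0.34 for the first 6, 0.21 for *Dkk2* and 0.25 for *Sfrp4*. With the fat score as a covariate, 0 members had an adjusted p under 0.05 (edgeR's quasi-likelihood test), beside 72 of the 16658 genes tested. An unadjusted p under 0.05 was reached by 6 members and by 1405 of the 16658 genes. The members were chosen on this contrast, so nothing is read from these counts. Leaving out control replicate 1, cKO replicate 1 or cKO replicate 2 each left 3 of the 6 members, and *Wif1*, *Sp5* and *Lef1* were the 3 in each case.

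**Figure D2:**
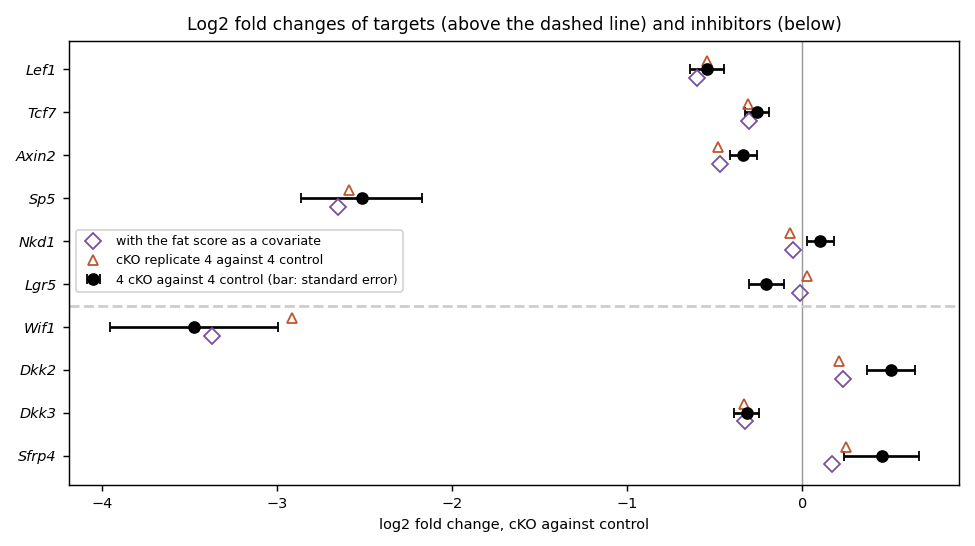
Log2 fold change of cKO against control (horizontal axis) of the 10 members, with filled points for all 8 libraries (bars of 1 standard error), diamonds for the fit with the fat score and triangles for cKO replicate 4 against the 4 controls. *Wif1* (-3.48) and *Sp5* (-2.52) lie far to the left in all 3 fits, *Nkd1* changes sign in both alternatives, and *Lgr5* does with cKO replicate 4 alone.

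The members also differed in how much they varied between mice of the same genotype. The biological coefficient of variation that edgeR fitted for *Dkk2* was 13.8%, above that of 97.1% of the 1530 genes of similar level, whose median was 6.90%. It was 20.8% for *Sfrp4* beside a median of 12.6%, and 10.3% for *Lgr5* beside 6.90%. By contrast, *Lef1* (9.79% beside 9.61%) and *Tcf7* (7.29% beside 7.17%) were near the median of genes of their level. *Sp5* and *Wif1*, with few counts, had 25.5% and 26.2%, beside 21.1% and 22.6% for genes of similar level.

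Levels can be compared between genes only per length of exons. In controls, *Dkk3* had the highest level of the 10 genes at 45.9 CPM per kb (41.9 to 50.4), followed by *Nkd1* at 43.5 (42.8 to 45.4), and the 2 overlapped. *Dkk2* (31.0), *Axin2* (25.8) and *Tcf7* (24.5) came next, each overlapping its neighbor in this order. *Lgr5* (8.37), *Lef1* (2.34) and *Sfrp4* (1.48) followed as separate levels, and *Sp5* (0.716) and *Wif1* (0.453) overlapped at the low end. In cKO mice *Nkd1* (46.7 CPM per kb) and *Dkk2* (44.1, from 35.8 to 51.4) were above *Dkk3* (36.8, from 34.3 to 40.3) in the mean, but the ranges of *Dkk2* and *Dkk3* overlapped.

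**Figure D3:**
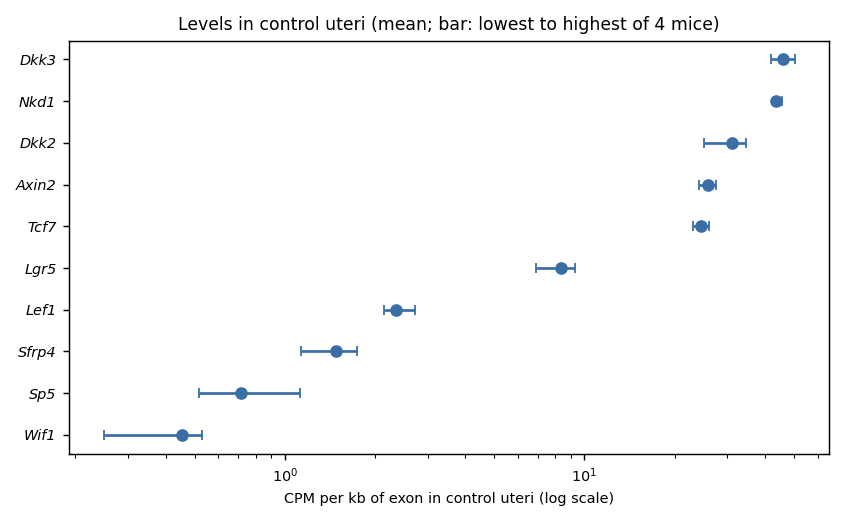
CPM per kb of exons (horizontal log axis) of the 10 members in control uteri, with the mean as a point and bars from the lowest to the highest of 4 mice, in the order of the means. Control levels run from *Dkk3* at 45.9 to *Wif1* at 0.453 CPM per kb.

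Ratios of 2 genes within a library are free of library scaling. *Dkk2* counts were 0.761, 0.699, 0.660 and 0.863 times the *Dkk3* counts in controls and 1.24, 1.53, 1.41 and 1.09 times in cKO libraries. These groups could not overlap, since *Dkk2* was higher and *Dkk3* lower in every cKO library than in every control. The means were 0.746 ± 0.0886 in controls and 1.32 ± 0.193 in cKO libraries. Counts are not corrected for exon length, so a ratio of 1 does not mark equal levels. *Axin2* counts were 0.696, 0.639, 0.771 and 0.768 times the *Nkd1* counts in controls and 0.526, 0.546, 0.507 and 0.541 times in cKO libraries. These cKO libraries lay within a narrow range, with a mean of 0.530 ± 0.0176 beside 0.718 ± 0.0634 in controls. For *Lef1* to *Tcf7* the ratio was 0.277 to 0.397 in controls and 0.227 to 0.288 in cKO mice, and the groups overlapped.

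**Figure D4:**
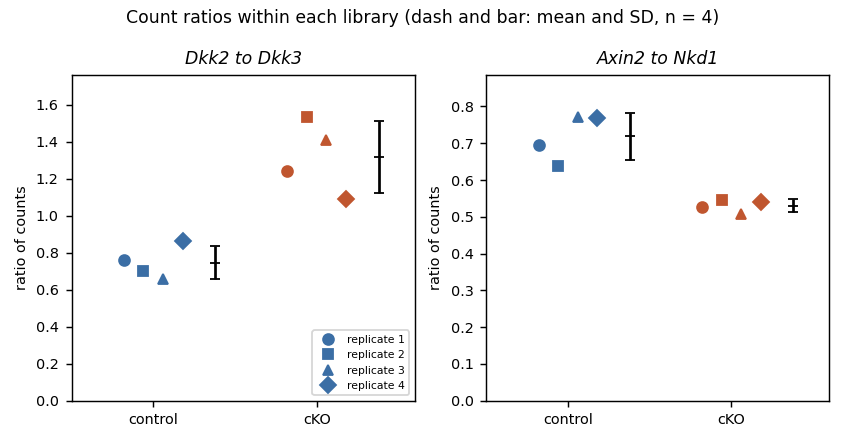
Ratio of counts within each library (vertical axes, from 0), *Dkk2* to *Dkk3* and *Axin2* to *Nkd1*, with the mean and SD of 4 libraries per genotype. *Dkk2* to *Dkk3* is 0.660 to 0.863 in controls and 1.09 to 1.53 in cKO mice.

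Other genes of the pathway were counted in 4 lists by role. Of 95 listed genes, 87 were tested and 8 had an adjusted p under 0.05 (9.20%, beside 5.34% of all genes), 5 lower and 3 higher in cKO mice, with a median log2 fold change of -0.01. *Ascl2* was the only DE gene among them. Among 22 other targets tested 5 were called (22.7%). *Sox9* (-0.71 ± 0.14, adjusted p = 0.0133) and *Ascl2* (-1.18 ± 0.31, adjusted p = 0.0471), transcription factors of epithelial progenitors in the intestine, fell. The call of *Ascl2* was lost in 7 of 8 fits that left out 1 library and also by DESeq2, with no filter, with no scaling and with a replicate block (adjusted p = 0.0523 to 0.0589 in these 4). *Twist1*, a mesenchymal transcription factor (0.37 ± 0.07, adjusted p = 0.0121), *Ephb3*, an ephrin receptor (0.37 ± 0.06, adjusted p = 0.00482), and *Ccn4*, a secreted matricellular protein (0.42 ± 0.10, adjusted p = 0.0353), rose. Leaving out 1 library ended the call of *Ccn4* in 5 of 8 fits and that of *Twist1* in 1 of 8. The *Sox9* level was 6.84 to 8.63 CPM in controls and 3.88 to 5.51 CPM in cKO mice. *Apcdd1* and *Id2*, which had the highest CPM in this list with no correction for length, had log2 fold changes of -0.10 and -0.04 (adjusted p = 0.541 and 0.771).

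In the other 3 lists, 1 of 16 inhibitors (6.25%), 1 of 21 receptors and R-spondins (4.76%) and 1 of 28 genes of signal transduction (3.57%) tested were called, shares near the 5.34% of all genes. The inhibitor *Sfrp2* was lower (-0.22 ± 0.06, adjusted p = 0.0363) at 170.0 to 189.4 CPM in controls and 146.6 to 160.1 CPM in cKO mice. *Igfbp4*, at 1315 and 1254 CPM, had a log2 fold change of -0.07 (adjusted p = 0.554). Of the receptors, *Ror2*, a WNT5A receptor, fell (-0.27 ± 0.06, adjusted p = 0.0258), whereas *Ptk7* (0.17) and *Ryk* (-0.14) did not pass the test. In signal transduction, *Tle4*, a co-repressor of TCF factors, fell (-0.44 ± 0.09, adjusted p = 0.0134). Leaving out 1 library ended the calls of *Sfrp2* and *Ror2* in 5 of 8 fits each and that of *Tle4* in 2 of 8. *Ctnnb1*, which encodes β-catenin, was at 1378 ± 28.5 CPM in controls and 1322 ± 70.6 CPM in cKO mice, with a log2 fold change of -0.06 (adjusted p = 0.586), and *Csnk1a1* had -0.04 (adjusted p = 0.715). Unless another fit is named, adjusted p-values are from edgeR's quasi-likelihood test on all libraries, with Benjamini-Hochberg adjustment over 16658 genes. Some other fits tested a different number of genes.

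Groups that did not overlap were found for 11 of the 87 genes (12.6%, near the 12.3% over all genes), with every cKO library below the controls for 7 and above them for 4. Without control replicate 1 only *Sox9* and *Ephb3* kept an adjusted p under 0.05, and those 2 kept it whichever library was left out (adjusted p up to 0.0462 and 0.0209). The count was 4 without cKO replicate 1 or 2 and 5 without cKO replicate 3. With a fat score covariate it was 0 by edgeR. In that fit 15 of the 87 genes had an unadjusted p under 0.05, beside 1405 of all 16658 genes tested. The fit rests mostly on cKO replicate 4, as for the members. The log2 fold changes with the covariate were 0.38 for *Twist1*, 0.57 for *Ccn4*, 0.26 for *Ephb3*, -0.51 for *Sox9*, -1.28 for *Ascl2*, -0.46 for *Tle4*, -0.22 for *Sfrp2* and -0.15 for *Ror2*. Beside *Sox9* and *Ascl2*, the gland markers *Foxa2* (1.62 to 2.25 CPM in controls, 0.0924 to 0.385 CPM in cKO mice) and *Cxcl15* (2.25 to 5.88 and 0.123 to 0.602 CPM) fell as well, while *Sox17* rose. *Wfdc3* (0 to 0.192 CPM in controls, 0 in cKO libraries) and *Prss28* (0 in all 8) were under the filter and not tested. The 8 epithelial markers summed to 1184 to 1448 CPM in controls and 1351 to 1646 CPM in cKO mice, with 0 of 8 called. Their part in the *Sox9*, *Ascl2* and *Lgr5* values was not tested.

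**Figure D5:**
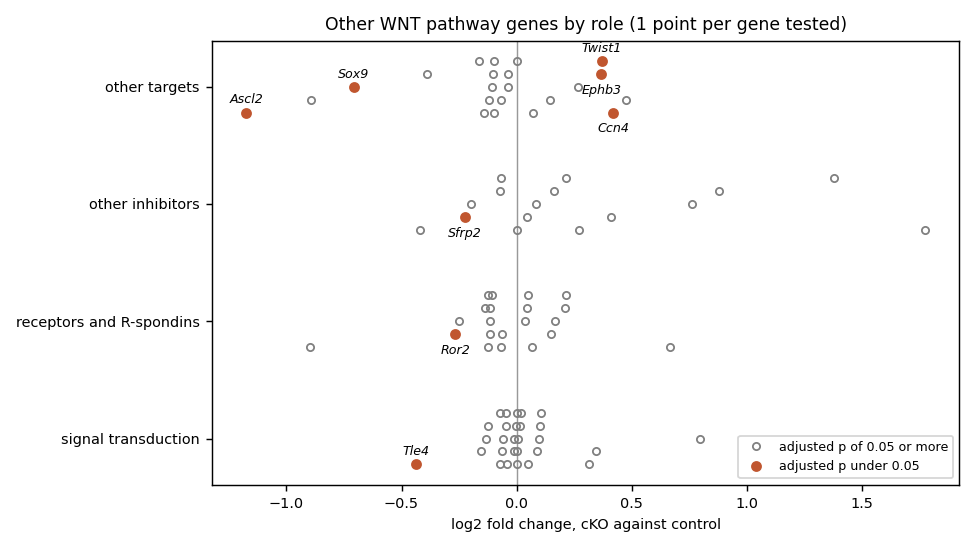
Log2 fold change of cKO against control (horizontal axis) of 87 other WNT pathway genes, 1 point per gene, in rows by role, with the 8 genes at an adjusted p under 0.05 filled and named. *Ascl2* (-1.18) is the lowest of these and *Ccn4* (0.42) the highest.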

How the data were processed

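RNA was sequenced from whole uteri at PD10 (4 control and 4 *Ezh2 Amhr2*-Cre cKO mice, grouped by the labels). Reads were trimmed (Trimmomatic), aligned to GRCm38 (HISAT2) and counted per Entrez gene (featureCounts) by the authors, and the deposited values used here are raw counts. Tool versions, annotation release and strand setting are not given in the sources used here. Gene identifiers and symbols (other values) came from the authors' deposited comparison table, whose fold changes and p-values were not used, and neither was their table of normalized log2 CPM.

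Genes above 0.2 CPM in 4 or more libraries entered the test in R 4.3.3 with edgeR 4.0.16 (TMM, glmQLFit and glmQLFTest, robust = TRUE, Benjamini-Hochberg adjustment), after a check on simulated counts. DE genes had an adjusted p under 0.05 and a change of more than 2-fold. CPM are TMM-normalized, errors of log2 fold changes are standard errors, and exon length is the union of exons in GENCODE M21. Limits cover counting error only.

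The members, gene lists and tests were chosen with earlier results of these data known. Named genes are all members, listed pathway genes with an adjusted p under 0.05, the 2 genes of highest CPM in each pathway list, and *Ezh2*. Marker genes were named beside a member. Alternatives were other normalizations, DESeq2 1.42.0, limma-voom (limma 3.58.1), robust = FALSE, the likelihood ratio test, no filter or CPM over 1, a prior count of 2, a replicate block, leaving out each library and a fat score covariate. cKO replicate 4 as the only cKO library was added after seeing the data. That fit kept genes above 0.2 CPM in 1 or more libraries, and 17326 genes were tested. Protein sequences and the qRT-PCR, imaging and hormone data were not analysed here.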

Additional observations from a re-analysis of the deposited data

Results flagged for a closer look

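Among 50 groups of 4 libraries (the 10 members and 15 other named pathway genes), 4 had 1 library far from the other 3 by Dixon's criterion, and chance flags about 1 in 20 such groups. *Nkd1* was highest in control replicate 2, at 207.1 CPM beside 195.0 to 195.6 CPM. *Wif1* was lowest in control replicate 4, at 0.604 CPM beside 1.23 to 1.28 CPM. *Apcdd1* was highest in control replicate 4, at 582.5 CPM beside 532.2 to 539.7 CPM. *Ptk7* was lowest in control replicate 3, at 455.7 CPM beside 500.9 to 504.0 CPM.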

How the results depend on the processing

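Of 209 log2 fold changes of members under the alternatives, 206 kept their direction. The 3 others were *Nkd1* with a fat score covariate (-0.054) and with cKO replicate 4 alone (-0.073), and *Lgr5* with cKO replicate 4 alone (0.025); the cause was not tested. All 167 log2 fold changes of the 8 other pathway genes kept their direction. Members with an adjusted p under 0.05 (6) numbered 0 with the fat score, which is nearly confounded with genotype, and 0 with cKO replicate 4 alone, 2 with a fold over 2 as well, and 3 to 6 when 1 library was left out. Other pathway genes (8) numbered 13 by the likelihood ratio test, 0 with the fat score, 0 with cKO replicate 4 alone, 1 with a fold over 2, and 2 to 9 when 1 library was left out. All genes (889) numbered 1506 by DESeq2, 1512 by the likelihood ratio test, 72 with the fat score, 217 with a fold over 2, 37 with cKO replicate 4 alone, and 409 to 1812 when 1 library was left out. With cKO replicate 4 alone, that library is assumed to vary like the controls. *Dkk2* was not called in the main fit (adjusted p = 0.0657, edgeR's quasi-likelihood test). It was called by DESeq2, the likelihood ratio test and robust = FALSE, and without cKO replicate 4 (0.60, adjusted p = 0.0204). It was not called in the other 7 of 8 fits that left out 1 library (adjusted p up to 0.159), with the replicate block (0.224) or with no filter (0.123). *Tcf7* lost its call with upper-quartile normalization (adjusted p = 0.0610, 5 members called) and with a filter of CPM over 1 (0.0508, 4 members called), where *Wif1* was not tested. Leaving out 1 library ended the call of *Dkk3* in 3 of 8 fits and of *Wif1* in 0. The adjusted p of *Tcf7* over all alternatives ran from 0.0137 to 0.430. *Ascl2* lost its call with no scaling beyond library size, by DESeq2, with no filter and with the replicate block (adjusted p = 0.0523 to 0.0589), with the fat score (0.523), with cKO replicate 4 alone (0.611) and whenever 1 library other than cKO replicate 1 was left out (up to 0.130), and it was not tested with CPM over 1. The planned comparison of protein sequences was not run.

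Same-numbered deviations correlated at 0.04, 0.13, -0.03 and 0.22 and only replicate 4 correlated best with its own number, so replicate numbers were not taken as pairs. These values do not show whether mice shared litters or batches. With the replicate number as a block, 6 members, 11 other pathway genes and 1240 genes in all were called, without *Ascl2*.

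Counts limit *Wif1* and *Sp5*, with 11 and 30 counts in the 4 cKO libraries together.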

Other observations

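Among the other inhibitors, 3 genes that did not pass edgeR's quasi-likelihood test are given here, chosen after their values were seen. DESeq2 and edgeR's likelihood ratio test called all 3. *Trabd2b*, which encodes a protease that acts on WNT proteins, was at 9.60 to 12.9 CPM in controls and 7.36 to 8.74 CPM in cKO mice (-0.42 ± 0.11, adjusted p = 0.0514, edgeR). *Shisa2* was at 5.80 to 8.15 CPM in controls and 8.66 to 10.5 CPM in cKO mice (0.41 ± 0.13, adjusted p = 0.0800, edgeR), and neither gene's groups overlapped. *Shisa3*, which retains Frizzled receptors inside the cell, was at 0.536, 1.12, 0.392 and 0.577 CPM in controls and 4.19, 2.14, 2.03 and 0.595 CPM in cKO replicates 1 to 4, so that only replicate 4, the cKO library with fat markers close to the controls, overlapped them (1.78 ± 0.52, adjusted p = 0.0793, edgeR).

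*Lef1* and *Dkk2* lie 861 kb apart on chromosome 3. Of 13 RefSeq genes between them 4 were tested, *Hadh*, *Cyp2u1*, *Sgms2* and *Papss1*, with log2 fold changes of 0.01, 0.08, 0.27 and -0.03, and 0 were called by edgeR.

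Of the remaining marker lists, stroma had 3 of 8 genes called (*Hoxa10* and *Hoxa11* lower, *Col3a1* higher) and Schwann cells 1 of 5 (*Sox10*, higher). Fat had 1 of 6 tested called (*Adrb3*, higher). Smooth muscle (6 tested), endothelium, mesothelium and macrophages (5 each) had 0 called by edgeR.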
